A study of Rattus norvegicus with 12 samples.

Results

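S100a8 and S100a9, the alarmin genes of neutrophils, the phagocyte oxidase genes Cybb, Cyba, Ncf1 and Ncf4, and the beta2 integrin genes Itgb2 and Itgam were followed in the liver of adrenalectomized Sprague-dawley rats of 8 to 10 weeks. The members were chosen by gene name: 9 probes of 41012 on the array carry the name of 7 of these genes, and 1 further probe, which the file calls LOC500904, was assigned to Ncf4 through its gene identifier, giving 8 genes. The 4 groups were compared, on 3 arrays each: males given dexamethasone, males given vehicle, females given dexamethasone and females given vehicle. Dexamethasone, a synthetic glucocorticoid, was injected i.p. at 1 mg/kg, the vehicle was phosphate-buffered saline, and liver was taken 6 h later. All animals lacked their adrenal glands, the main source of glucocorticoid in the body, and the females were in Diestrous 1. Each array received pooled liver RNA of 3 animals, so that the spread between arrays is a spread between pools of different animals and not between single animals.

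S100A8 and S100A9 are small calcium-binding proteins that pair with each other, fill much of the neutrophil cytosol and act outside the cell through TLR4 and RAGE. The phagocyte oxidase makes superoxide from oxygen: CYBB is its catalytic membrane subunit, CYBA is the membrane partner that stabilises it, and NCF1 and NCF4 are cytosolic subunits that join them on activation. ITGB2 (CD18) and ITGAM (CD11b) form Mac-1, the integrin with which neutrophils, monocytes and macrophages adhere and take up complement-coated particles. In the liver such transcripts come mainly from blood-borne and resident leukocytes rather than from hepatocytes, except that Cyba is also expressed in many other cells, where its protein partners other oxidases.

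The identity of 3 of the probes matters for the readings below, so their sequences, as the array design gives them, are shown in lower case. S100a8 and S100a9 are the alarmins, and the Ncf4 probe is named differently in the file.
S100a8 probe: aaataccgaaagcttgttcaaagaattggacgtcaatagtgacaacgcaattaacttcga
S100a9 probe: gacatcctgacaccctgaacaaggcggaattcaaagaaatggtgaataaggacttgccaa
Ncf4 probe: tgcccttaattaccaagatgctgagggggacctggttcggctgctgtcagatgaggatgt
S100a8 has 2 further probes, built on an expressed sequence tag. One of them was well above background, by the scanner software's own flag, on 2 of 12 arrays and the other on 0, so neither entered the fit, and whether they lie on the strand of the S100a8 transcript was not tested. In a fit of all probes regardless of brightness neither was called (adjusted p = 0.282 and 0.17 in females, 0.768 and 0.317 in males, limma).

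Upstream sequence is shown for the 4 members in which a searched motif was found. Whether the motifs bear on the differences below was not tested. The promoter table of RefSeq (build GRCr8) held 5 of the 8 members (S100a9, Cybb, Cyba, Ncf1 and Itgam), and the 250 bases before the start were searched on both strands for 6 motifs: C/EBP (TTNNGNAA), PU.1 (GAGGAA), NF-kappaB, the full glucocorticoid receptor element, a half-site of that receptor (AGAACA) and the TATA box (TATAAA). The half-site was added after the full element and NF-kappaB had been searched. C/EBP and PU.1 factors are known for their part in myeloid gene expression. Capitals mark any match, and matches of C/EBP and PU.1 overlap in Itgam.
S100a9, chr2:178490623-178490872, minus strand: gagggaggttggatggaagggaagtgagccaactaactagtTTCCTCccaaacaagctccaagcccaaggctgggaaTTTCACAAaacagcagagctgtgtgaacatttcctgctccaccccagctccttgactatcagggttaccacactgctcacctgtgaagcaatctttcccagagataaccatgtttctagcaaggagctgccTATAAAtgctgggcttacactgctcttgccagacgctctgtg
Cybb, chrX:16065066-16065315, minus strand: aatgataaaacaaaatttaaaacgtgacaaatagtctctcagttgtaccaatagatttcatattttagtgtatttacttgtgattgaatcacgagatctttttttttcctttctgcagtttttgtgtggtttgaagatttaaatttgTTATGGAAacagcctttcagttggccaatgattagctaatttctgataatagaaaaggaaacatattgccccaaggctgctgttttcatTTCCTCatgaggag
Itgam, chr1:192089342-192089591, plus strand: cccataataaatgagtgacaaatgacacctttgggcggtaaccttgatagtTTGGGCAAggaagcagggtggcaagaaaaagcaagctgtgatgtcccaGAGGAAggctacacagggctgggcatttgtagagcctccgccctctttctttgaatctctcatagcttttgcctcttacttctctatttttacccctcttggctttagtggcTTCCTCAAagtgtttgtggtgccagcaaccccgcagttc
Ncf1, chr12:28121635-28121884, plus strand: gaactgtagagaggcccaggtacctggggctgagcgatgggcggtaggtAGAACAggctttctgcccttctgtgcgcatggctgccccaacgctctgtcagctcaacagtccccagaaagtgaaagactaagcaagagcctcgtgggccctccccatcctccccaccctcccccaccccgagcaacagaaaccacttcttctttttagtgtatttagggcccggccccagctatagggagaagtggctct
The C/EBP letters lie in 3 of the 5 member promoters (S100a9, Cybb and Itgam), against 37.2% of all 33469 promoters in the table. The PU.1 letters lie in the same 3, against 23.3% of all promoters. The TATA box letters lie in S100a9 alone, from 42 to 37 bases before its start, against 12.9% of all promoters. The letters of the glucocorticoid receptor half-site lie in Ncf1 alone, from 201 to 196 bases before its start, against 17.5% of all promoters. The full receptor element lay in 0 of the 5 and in 0.146% of all promoters, and NF-kappaB in 0 of the 5 and in 6.33% of all. Cyba held none of the 6 motifs, so its sequence is not shown. S100a8 and S100a9 are next to each other in the RefSeq gene table, with 0 genes between them.

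The treatment labels held in every group: Fkbp5, a glucocorticoid-induced gene, was 18.0-fold higher with dexamethasone in males (log2 difference 4.17 ± 0.18, SE) and 23.3-fold higher in females (4.54 ± 0.20). The levels below are log2 signals relative to the 75th percentile of the same array, so that 0 is the signal of a fairly bright probe, and differences are dexamethasone minus vehicle with the standard error of limma's fit over all 24298 measured genes. A gene is called where its Benjamini-Hochberg adjusted p is under 0.05. The arrays lay on 5 slides, and the 4 arrays of slide 5, which hold replicate 3 of each group, were dimmer: 53.0% to 61.8% of their spots were well above background, against 62.7% to 69.7% on the other 8. Slide 1 holds an array of each male group, and only slide 5 holds both female groups, so that in females slide and treatment cannot be told apart outside slide 5. Values within slides and with the slide as a block are therefore given beside the results.

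Of the 8 genes, 5 were called in males, all lower with dexamethasone: S100a8, S100a9, Cyba, Ncf1 and Itgb2. In that comparison 20.1% of all genes were called and 10.8% were called lower. In females 6 of 8 were called, all lower: S100a8, S100a9, Cyba, Ncf1, Ncf4 and Itgam, where 24.4% of all genes were called and 12.6% were called lower. The arrays of the 2 treatments did not overlap for the same 5 and 6 genes, against 18.5% of all genes in males and 23% in females that lay lower without overlap. The median difference over the 8 genes was -1.30 in males and -2.08 in females, beside 0.01 and -0.08 over all genes. With the slide as a fixed block 4 genes were called in males and 2 in females, and without the 4 arrays of slide 5, 4 in each. With whole liver RNA, fewer cells of a type and less RNA per cell cannot be told apart.

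**Figure D1:**
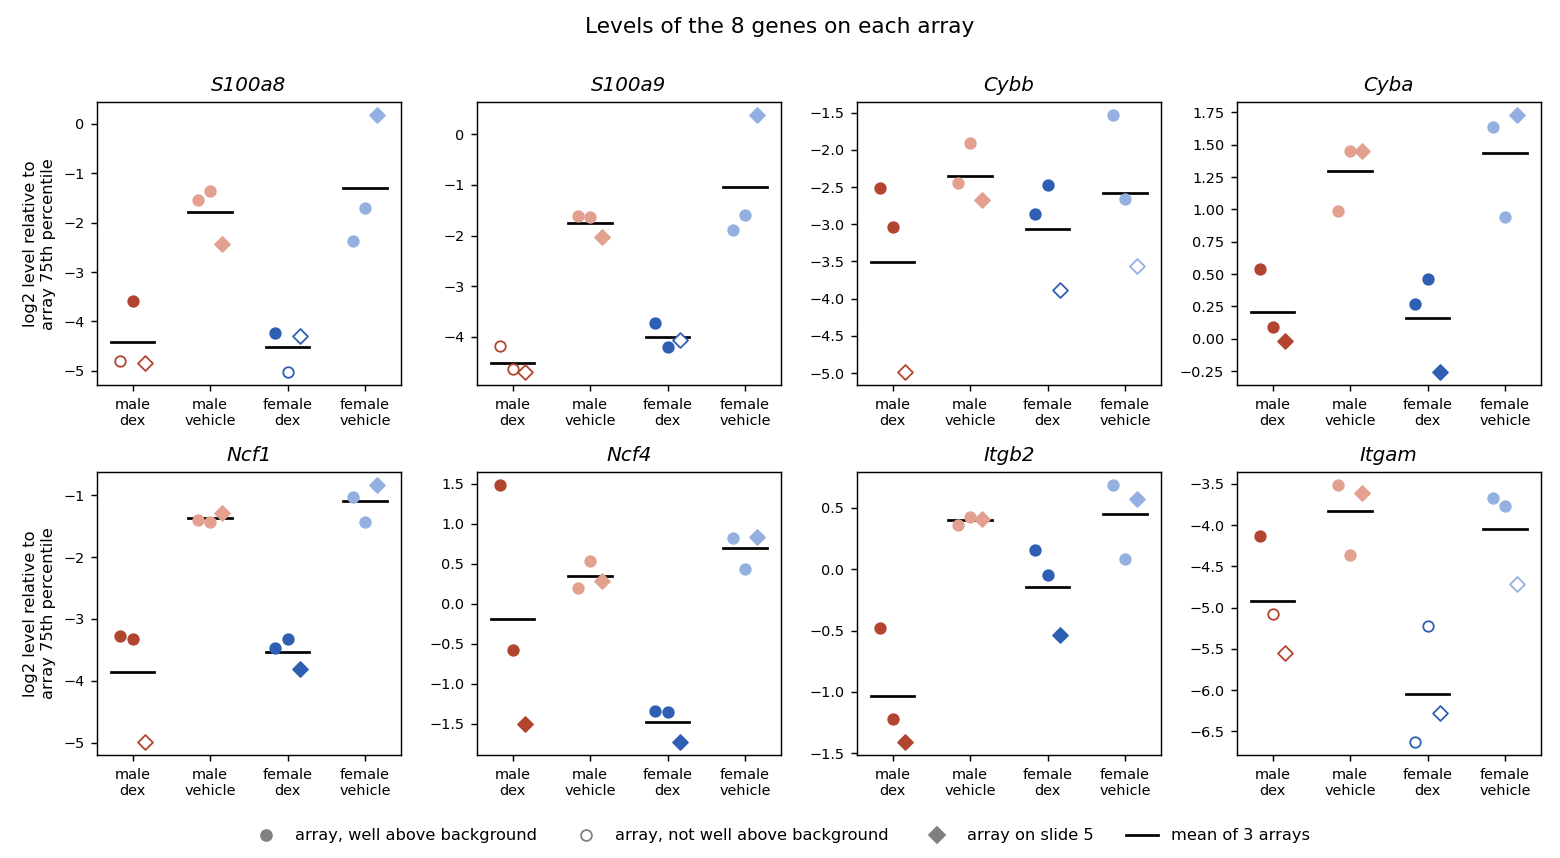
Log2 level of the 8 genes on each of the 12 arrays, relative to the array's 75th percentile, with dexamethasone left of vehicle in each sex. Points are arrays (diamonds are on slide 5, open symbols are not well above background) and bars are means of 3 arrays. S100a8, S100a9, Cyba and Ncf1 show no overlap between the treatments in either sex.

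The alarmin genes were lower with dexamethasone in both sexes. S100a8 stood at -4.80, -3.58 and -4.85 on the male dexamethasone arrays, against -1.55, -1.35 and -2.44 on the male vehicle arrays. In females it stood at -4.23, -5.03 and -4.29 with dexamethasone, against -2.38, -1.70 and 0.18 with vehicle. Every dexamethasone array lay below every vehicle array of its sex, and 1 female vehicle array, that of slide 5, lay far above the other two. S100a8 fell by 2.64 ± 0.61 on the log2 scale in males (6.22-fold, adjusted p = 0.012, limma) and fell by 3.21 ± 0.61 in females (9.27-fold, adjusted p = 0.00395). It was well above background on 1 of 3 dexamethasone arrays in each sex and on all 3 vehicle arrays in each, so the low values rest on dim spots. Without female vehicle replicate 3 the female difference was -2.47, still called. In males the difference was -3.45 within slide 1 and -2.42 within slide 5, and in females -4.46 within slide 5. With the slide as a fixed block the calls ended (-2.36, adjusted p = 0.0974 in males, and -3.31, adjusted p = 0.122 in females). Normexp background correction was run with an offset of 50, which compresses dim signals. Under it the difference in males was -0.87 (adjusted p = 0.0891) and that in females -1.29 (adjusted p = 0.012), still called.

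S100a9 followed S100a8. It stood at -4.19, -4.64 and -4.70 with dexamethasone in males, against -1.62, -1.63 and -2.03 with vehicle. With dexamethasone in females it stood at -3.73, -4.20 and -4.06, against -1.90, -1.59 and 0.38 with vehicle. No array crossed between treatments, and the female vehicle array of slide 5 was again the highest of all 12. In males S100a9 was not well above background on any of the 3 dexamethasone arrays, so the fold is a bound. The observed means lay at least 5.06-fold apart, lower with dexamethasone. The measured difference was -2.75 ± 0.48 (95% interval -3.82 to -1.68, adjusted p = 0.00274, limma). The bound leaves out that standard error, and the interval allows a smaller drop than the bound. For this bound the male vehicle mean was set against the dimmest signal well above background on each dexamethasone array, or the probe's own signal where that was higher. In females it fell by 2.96 ± 0.48 (7.78-fold, adjusted p = 0.00171), and the difference was -2.25 on the same scale without female vehicle replicate 3, still called. Within slide 5 the difference was -2.67 in males and -4.44 in females, and within slide 1 it was -2.56 in males. The slide as a fixed block kept both calls, with -2.28 (adjusted p = 0.0206) in males and -3.77 (adjusted p = 0.02) in females. Normexp correction ended the male call (-0.75, adjusted p = 0.133) and gave -1.22 in females (adjusted p = 0.0129).

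**Figure D2:**
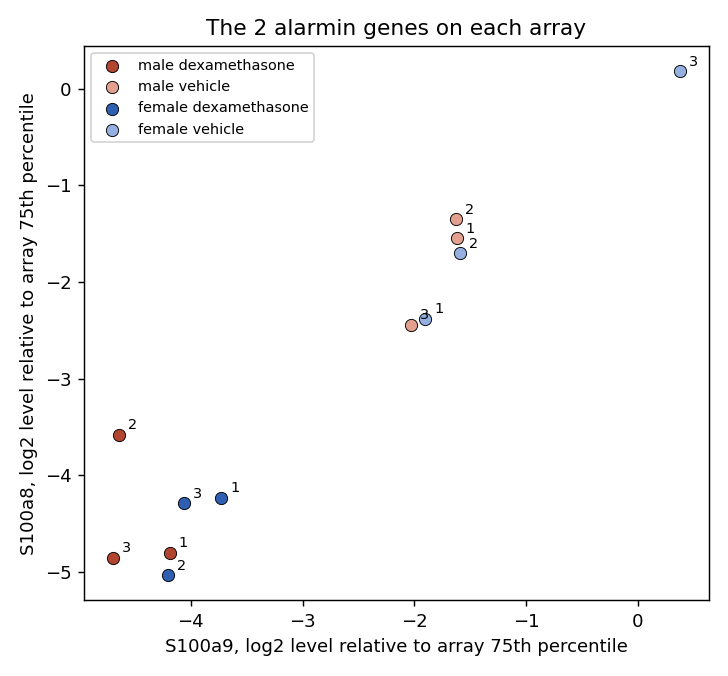
S100a8 against S100a9 on each of the 12 arrays (log2 level relative to the array's 75th percentile), numbered by replicate within each group. The 6 dexamethasone arrays sit below -3.5 on both axes and the 6 vehicle arrays above -2.5, with female vehicle replicate 3 at the top right.

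Across the 12 arrays the levels of S100a8 and S100a9 correlated at Pearson r = 0.957, and at 0.803 after each group's mean was taken out. Those 12 points share the treatment split, and the female vehicle array of slide 5 is high for both genes. Of the 28 pairs among the 8 genes, r ran from 0.297 (S100a8 with Cybb) to 0.957, with a median of 0.703. After the group means were taken out the range was -0.614 to 0.839, the lowest for S100a8 with Itgam and the highest for Cyba with Itgb2. Itgam was well above background on 6 of the 12 arrays and S100a8 on 8, so the lowest value rests partly on dim spots.

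Of the membrane subunits of the oxidase, Cyba was lower with dexamethasone in both sexes and Cybb was not called in either. Cybb, the catalytic subunit, stood at -2.51, -3.03 and -4.99 on the male dexamethasone arrays, against -2.45, -1.91 and -2.68 with vehicle. In females it stood at -2.86, -2.47 and -3.88 with dexamethasone, against -1.53, -2.66 and -3.56 with vehicle. The treatments overlapped in both sexes, and the array on slide 5 was the lowest of its group in all 4 groups. The difference was -1.16 ± 0.67 in males (95% interval -2.66 to 0.33, adjusted p = 0.28) and -0.49 ± 0.67 in females (-1.98 to 1.00, adjusted p = 0.637). These intervals still allow a drop as large as that of Cyba. Within slide 5 the difference was -2.31 in males and -0.33 in females, and within slide 1 it was -0.60 in males. With the slide as a random block the male difference was called (-1.33, adjusted p = 0.0498).

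Cyba, whose protein holds the catalytic subunit in the membrane, was well above background on every array. It stood at 0.54, 0.09 and -0.02 on the male dexamethasone arrays, against 0.99, 1.45 and 1.45 with vehicle. In females it stood at 0.27, 0.46 and -0.26 with dexamethasone, against 1.64, 0.94 and 1.73 with vehicle. The treatments did not overlap in either sex. Cyba fell by 1.09 ± 0.27 in males (2.13-fold, adjusted p = 0.0181) and fell by 1.28 ± 0.27 in females (2.43-fold, adjusted p = 0.00734). The male call ended without male vehicle replicate 2 or 3 or male dexamethasone replicate 2 or 3 (adjusted p = 0.0603, 0.0613, 0.0588 and 0.0658). Without the 4 arrays of slide 5 both calls ended (-0.90, adjusted p = 0.103 in males, and -0.93, adjusted p = 0.0657 in females). Within slide 5 the difference was -1.46 in males and -1.99 in females, within slide 1 -0.91 in males, and with the slide as a fixed block -1.12 (adjusted p = 0.0276) and -1.86 (adjusted p = 0.0253).

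Of the cytosolic subunits, Ncf1, the organiser that carries the complex to the membrane, was lower with dexamethasone in both sexes. It stood at -3.27, -3.33 and -4.99 with dexamethasone in males, against -1.40, -1.44 and -1.29 with vehicle. On the female dexamethasone arrays it stood at -3.47, -3.33 and -3.81, against -1.03, -1.43 and -0.83 with vehicle. The gap between the treatments was wider than the range within either. Ncf1 fell by 2.49 ± 0.39 in males (5.61-fold, adjusted p = 0.00151) and fell by 2.44 ± 0.39 in females (5.42-fold, adjusted p = 0.0016). The male dexamethasone array on slide 5 was not well above background, and without that array the male difference was -1.93, still called. Within slide 5 the difference was -3.69 in males and -2.98 in females, and within slide 1 -1.83 in males. With the slide as a fixed block it was -2.52 in males (adjusted p = 0.0169) and -2.49 in females, where the call ended (adjusted p = 0.0689). Under normexp correction it was -0.80 in males (adjusted p = 0.00175) and -1.05 in females (adjusted p = 0.000228), both still called.

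Ncf4, the subunit that binds a phosphoinositide of the phagosome membrane, was called in females and not in males. It stood at 1.49, -0.58 and -1.50 on the male dexamethasone arrays, against 0.20, 0.54 and 0.29 with vehicle. In females it stood at -1.34, -1.36 and -1.73 with dexamethasone, against 0.82, 0.44 and 0.83 with vehicle. Replicate 1 of the male dexamethasone group was the highest array of all 12, while the other two lay below every vehicle array. The male difference was -0.54 ± 0.58 (adjusted p = 0.602), and without that replicate it was -1.38 (adjusted p = 0.0104). In females Ncf4 fell by 2.17 ± 0.58 (4.51-fold, adjusted p = 0.0204). That call ended without female vehicle replicate 1 (adjusted p = 0.0589), without female dexamethasone replicate 1, 2 or 3 (0.0504, 0.0548 and 0.0591), without slide 5 (0.0587) and with the slide as a fixed block (-2.43, adjusted p = 0.0873). The female minus the male difference was -1.64 ± 0.81 (adjusted p = 0.532), so no difference between the sexes was called. Within slide 5 it was -1.78 in males and -2.56 in females, whereas within slide 1, which holds the high male array, it was 0.95.

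**Figure D3:**
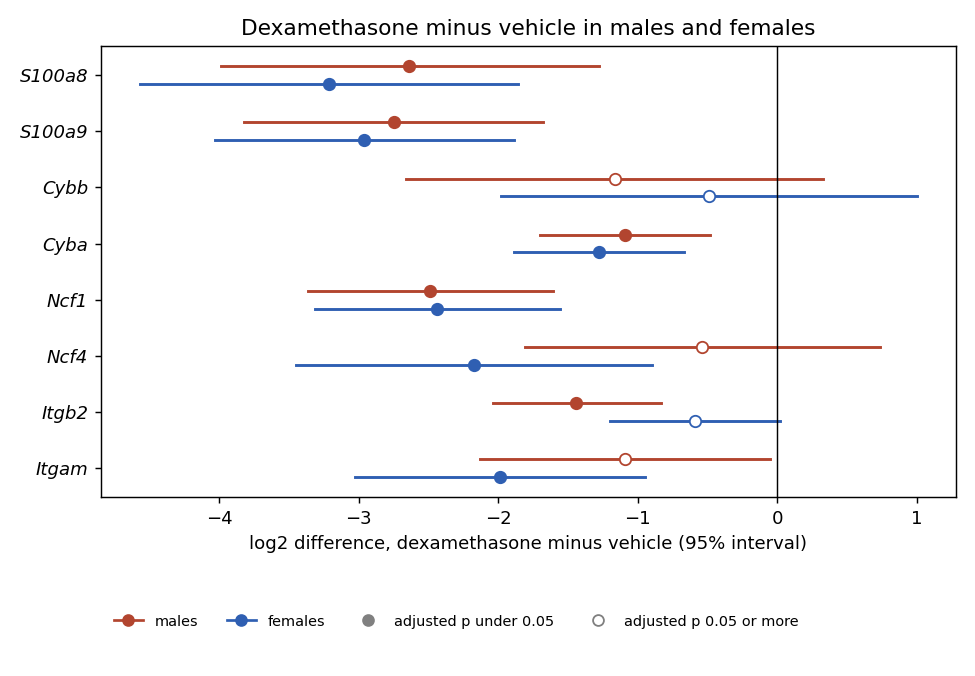
Dexamethasone minus vehicle log2 difference of each gene in males and females, with its 95% interval from limma over all 24298 genes. Filled points have an adjusted p under 0.05 (5 genes in males, 6 in females), and no filled point lies right of 0.

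Of the integrin genes, Itgb2, the common beta chain, was called in males and Itgam, the alpha chain of Mac-1, in females. Itgb2 stood at -0.48, -1.22 and -1.41 on the male dexamethasone arrays, against 0.36, 0.43 and 0.41 with vehicle. In females it stood at 0.16, -0.05 and -0.54 with dexamethasone, against 0.69, 0.08 and 0.57 with vehicle. In females dexamethasone replicate 1 lay above vehicle replicate 2, so the groups overlapped. Itgb2 fell by 1.44 ± 0.27 in males (2.71-fold, adjusted p = 0.00429), and the female difference was -0.59 ± 0.27 (adjusted p = 0.143). The female minus the male difference was 0.85 ± 0.39 (95% interval -0.01 to 1.70, adjusted p = 0.507, limma). Within slide 5 the difference was -1.82 in males and -1.11 in females, and within slide 1 -0.91 in males. With the slide as a fixed block it was -1.34 (adjusted p = 0.0172) in males and -1.06 (adjusted p = 0.118) in females.

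Itgam was dim throughout. It stood at -4.13, -5.08 and -5.55 with dexamethasone in males, against -3.51, -4.36 and -3.61 with vehicle. It stood at -6.63, -5.22 and -6.28 on the female dexamethasone arrays, against -3.67, -3.77 and -4.72 with vehicle. In males 1 dexamethasone array lay above 1 vehicle array, and in females the groups were apart. The male difference was -1.09 ± 0.47 (adjusted p = 0.137). No female dexamethasone array was well above background, so the female fold is a bound. The observed means of Itgam lay at least 1.28-fold apart, lower with dexamethasone. The measured difference was -1.99 ± 0.47 (adjusted p = 0.0118, limma), and the bound leaves out that standard error. The female call ended under normexp correction (-0.39, adjusted p = 0.0897) and with the slide as a fixed block (-1.89, adjusted p = 0.191). Within slide 5 the difference was -1.94 in males and -1.56 in females, and within slide 1 it was 0.23 in males.

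Females and males were then compared directly. The female minus male difference in the dexamethasone effect was called for 0 of 8 (limma, 0 also at an unadjusted p under 0.05), where 0.0288% of all genes were called. After vehicle, female minus male was called for 0 of 8 (0 unadjusted), with 1.71% of all genes called. After dexamethasone it was again called for 0 of 8, with 2.31% of all genes called and 15.6% at an unadjusted p under 0.05. Unadjusted, 3 passed after dexamethasone: Itgb2 (0.89 ± 0.27, higher in females, adjusted p = 0.142), Ncf4 (-1.28 ± 0.58, lower in females, adjusted p = 0.319) and Itgam. Itgam was well above background on 0 of 3 female and 1 of 3 male dexamethasone arrays, so no size is given for it. The intervals are wide: that of S100a8 after vehicle ran from -0.88 to 1.83.

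Ordered by their group means, S100a9 stood at -1.04 ± 1.24 in female vehicle, -1.76 ± 0.23 in male vehicle, -4.00 ± 0.24 in female dexamethasone and -4.51 ± 0.28 in male dexamethasone arrays (SD, n = 3 each). The sexes within a treatment did not pass the test, while the treatments within each sex did.

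Other genes of the same machinery were followed as fixed lists. Beside the counts given for all lists, 20.1% of all genes were called in males and 24.4% in females. Called lower were 10.8% and 12.6%. Of the other oxidase subunits and regulators, 5 were measured and 1 was called in each sex: Rac2, the GTPase of the neutrophil oxidase, fell by 1.09 ± 0.24 in males (adjusted p = 0.0091) and fell by 1.74 ± 0.24 in females (adjusted p = 0.00063). Rac1, which is expressed in nearly all cells, was at 0.00 ± 0.21 and 0.32 ± 0.21, and Cybc1, the chaperone of the membrane subunits, at -0.49 ± 0.17 and -0.25 ± 0.17, none of them called.

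Of 7 measured partners and ligands of the beta2 integrins, 4 fell and 1 rose in each sex (median -1.25 in males and -1.07 in females). Icam1, a ligand of Mac-1 on endothelium and other cells, fell by 1.67 ± 0.30 in males (adjusted p = 0.00304) and fell by 1.07 ± 0.30 in females (adjusted p = 0.026). Icam2, another endothelial ligand, was lower too, at -1.51 ± 0.25 in males (adjusted p = 0.00204) and -1.42 ± 0.25 in females (adjusted p = 0.00274). Fermt3, the kindlin that activates integrins in blood cells, was at -0.94 ± 0.26 in males and -0.90 ± 0.26 in females (adjusted p = 0.0278 and 0.0294). Jam3, a junction protein that Mac-1 binds, rose by 2.03 ± 0.22 in males (adjusted p = 0.000152) and rose by 1.05 ± 0.22 in females (adjusted p = 0.00631). F11r, a junction protein too, was called lower in males (-1.25 ± 0.25, with -0.63 ± 0.25 in females) and Itgad, another alpha chain, in females (-1.16 ± 0.32, with -0.12 ± 0.32 in males). The female minus the male difference was not called for F11r or Itgad (adjusted p = 0.564 and 0.493).  Itgal, the alpha chain of LFA-1, was not called (-1.40 ± 0.56 in males and -1.17 ± 0.56 in females).

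Genes for the receptors of the alarmins and their signalling were counted next. Of 10 measured genes of the receptor and signalling list, 1 was called lower in males (Irak4, -0.86 ± 0.22, adjusted p = 0.0214) and 0 in females (limma). A female minus male difference in the dexamethasone effect was called for 0 of the 10. Tlr4 was at -1.38 ± 0.58 in males (adjusted p = 0.129) and at -1.52 ± 0.58 in females (adjusted p = 0.0832), and Ager, which encodes RAGE, at 0.34 ± 0.25 and -0.30 ± 0.25. Among 7 other S100 genes, S100a4 fell by 1.33 ± 0.37 in males (adjusted p = 0.0276) and fell by 1.93 ± 0.37 in females (adjusted p = 0.00412). In females S100a1 (-0.77 ± 0.18) and S100a10 (-0.60 ± 0.16) were also called lower, while the female minus the male effect was called for 0 of the 7.

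Among 6 measured transcription factors of the myeloid lineage the changes ran both ways. Runx1 fell by 1.63 ± 0.26 in males (adjusted p = 0.00175) and fell by 1.35 ± 0.26 in females (adjusted p = 0.00458). Spi1, which encodes PU.1, was called in males (-1.24 ± 0.28, adjusted p = 0.00969) and not in females (-0.72 ± 0.28, adjusted p = 0.083). Cebpd rose by 1.05 ± 0.33 in males (adjusted p = 0.0471) and rose by 1.27 ± 0.33 in females (adjusted p = 0.0185). Cebpb was called higher in males (1.02 ± 0.22) and Cebpa in females (0.93 ± 0.21). The female minus the male difference in the dexamethasone effect was called for 0 of the 6. Cebpa, Cebpb and Cebpd are also expressed in hepatocytes, so their levels in whole liver are not those of leukocytes alone.

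**Figure D4:**
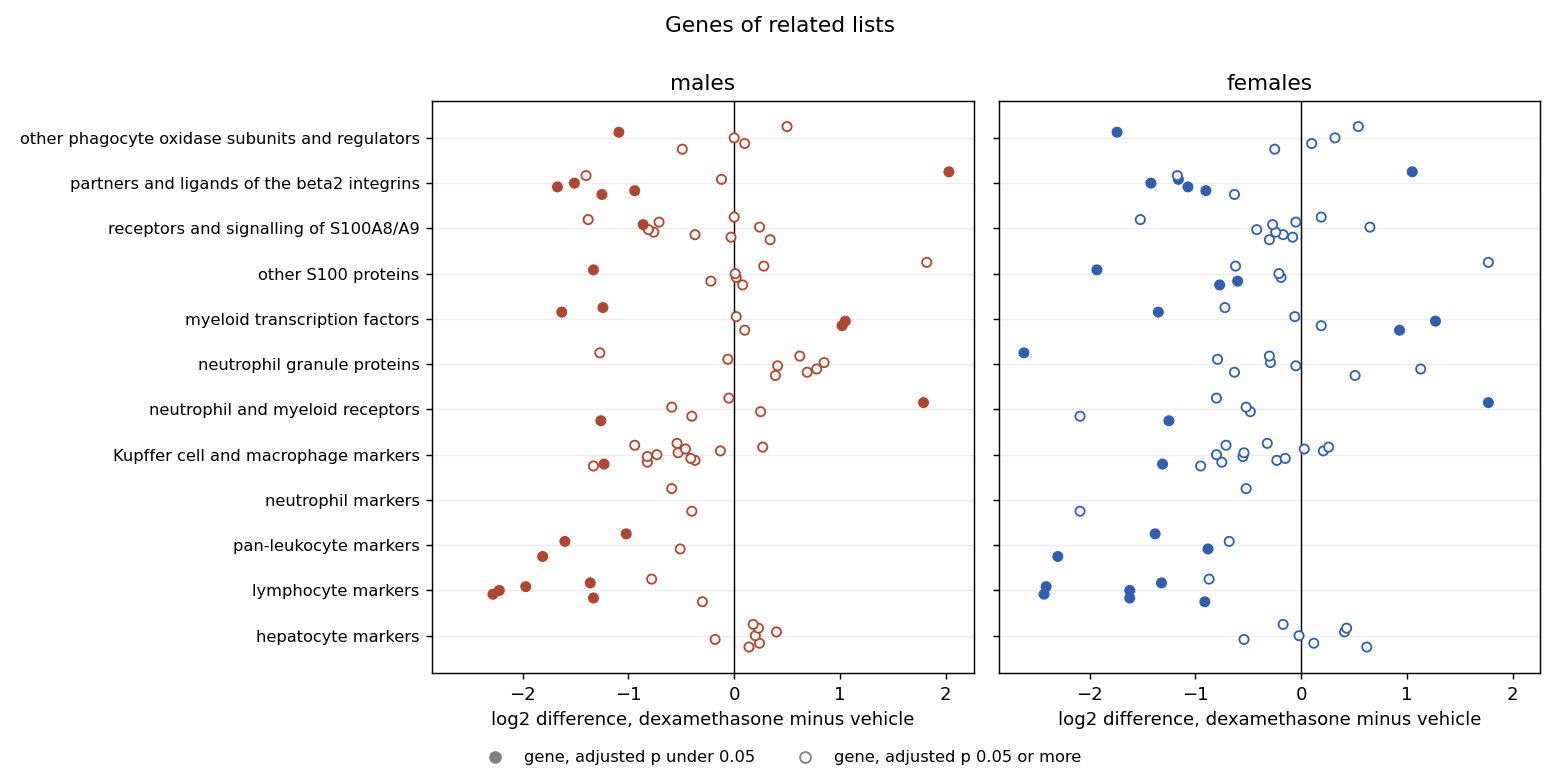
Dexamethasone minus vehicle log2 difference of each measured gene of the related lists, in males and females on the same axis. Filled points have an adjusted p under 0.05. They lie right of 0 only in the lists of beta2 integrin partners, neutrophil and myeloid receptors, and myeloid transcription factors.

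Pan-leukocyte and lymphocyte markers were mostly called lower with dexamethasone, while the macrophage and measured neutrophil markers, given below, were mostly not called. The signals of the 4 measured pan-leukocyte markers summed to a log2 level of 3.68 to 3.93 on the male dexamethasone arrays, against 4.56 to 4.81 with vehicle, and of 3.48 to 3.98 against 4.69 to 5.35 in females. The ranges did not overlap, while among all single genes 18.5% in males and 23% in females lay lower without overlap. Of the 4 markers, 3 were called lower in each sex. Coro1a, a coat protein of leukocyte actin, was at -1.81 ± 0.19 in males and -2.30 ± 0.19 in females, and Tyrobp, a signalling adaptor of myeloid and NK cells, at -1.02 ± 0.28 and -1.38 ± 0.28. Of 7 lymphocyte markers 5 fell in males and 6 in females, for example Gzma, a granule protease of cytotoxic lymphocytes, with -1.97 ± 0.23 in males and -2.41 ± 0.23 in females. The part of these shifts in the members' differences was not tested.

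Markers of neutrophils were mostly at background. Of 9 analysed, 2 were measured (Csf3r and Fcgr3a) and neither was called. Csf3r was well above background on 2 of 3 arrays in each male group and in female vehicle, and on 0 of 3 in female dexamethasone. Fcgr3a, which is also on the list of neutrophil and myeloid receptors, was well above background on all 12 arrays. The summed level below therefore mostly follows Fcgr3a. Camp, Ltf, Mmp8 and Cd177 were well above background on 0 of 12 arrays, and Mpo, Mmp9 and Cxcr2 on 1 each. The 2 measured markers summed to a log2 level of -1.18 to -0.46 on the male dexamethasone arrays, against -0.66 to -0.05 with vehicle, and of -2.14 to -0.14 on the female dexamethasone arrays, against -0.63 to 0.43 with vehicle. Of 8 measured granule protein genes, 0 were called in males and 1 in females, Slpi (-2.62 ± 0.46, adjusted p = 0.0024), which other cells express as well. The median difference over these 8 was 0.52 in males and -0.3 in females. Prtn3, Np4, Pglyrp1 and Lcn2 were well above background on all 12 arrays and called in neither sex. For the female minus the male dexamethasone effect, 0 of the 8 were called. Kupffer cell and macrophage markers, 13 of them, had 1 called member in each sex, Aif1 (-1.23 ± 0.38 in males and -1.31 ± 0.38 in females). Their summed levels overlapped, at 5.87 to 6.80 in male dexamethasone, against 6.46 to 6.94 in male vehicle, and at 5.74 to 6.91 in female dexamethasone, against 6.51 to 7.31 in female vehicle. Of 7 hepatocyte markers, 0 were called in either sex (limma). The members are thus called neutrophil genes from their known biology, and 7 of the 9 neutrophil markers were at background on nearly all arrays.

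Of the 6 neutrophil and myeloid receptor genes measured, C5ar1, the complement C5a receptor, fell by 1.26 ± 0.39 in males (adjusted p = 0.0465) and fell by 1.25 ± 0.39 in females (adjusted p = 0.042). Il1r2, the decoy receptor of interleukin-1, rose by 1.79 ± 0.36 in males (adjusted p = 0.00528), where 2 of 3 dexamethasone and 1 of 3 vehicle arrays were well above background. In females no vehicle array was, so the fold is a bound: the observed means of Il1r2 lay at least 3.3-fold apart, higher with dexamethasone. The measured difference was 1.77 ± 0.36 (adjusted p = 0.00521, limma), and the bound leaves out that standard error.

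The genes with the most similar patterns over the 12 arrays were found by Pearson correlation among 12028 named genes, as a description, since all arrays share the treatment split. Closest to S100a9 were Sirpa (r = 0.971), Fcmr (0.965), Dok3 (0.963), Rab27a (0.96) and Runx1 (0.957), and Sirpa differed by -2.76 in males and -2.73 in females. Closest to Itgb2 were Il18 (0.965), Cbx3 (0.953), Lcp2 (0.948), Pcdh7 (0.945) and Tlr3 (0.94). Closest to Cybb were Mynn (0.963), Sptlc2 (0.946), Cd163 (0.945), Fyn (0.943) and Dock11 (0.941), none of which was called in either sex. For Cybb the slide 5 array was the lowest in all 4 groups, and the part of the slide in these correlations was not tested.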

How the data were processed

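Liver RNA of 12 pools was hybridised to 1-colour Agilent arrays. The authors extracted spot intensity values with Agilent Feature Extraction, version 9.1 per the submitters' processing notes and 9.1.3.1 per the file headers, which gives a background-subtracted processed signal and flags for outliers, saturation and signal over background. The deposited value table holds log10 intensity, with scaling and centring not stated, and served as an alternative (correlation of at least 0.996 with the processed signal).

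Each array's processed signal was log2-transformed and set relative to its own 75th percentile over non-control spots. Outlier spots (211 in all) became missing, spots of a probe were averaged, and 0 spots were saturated. A probe was kept if 3 or more of the 12 arrays had it well above background and each group had 2 or more usable arrays; the brightest kept probe stood for a gene (24298 genes). Of 41012 probes, 20371 matched the RefSeq gene table (GRCr8). limma 3.58.1 (R 4.3.3) fitted 4 group means with 5 contrasts, Benjamini-Hochberg adjustment within each and 8 residual degrees of freedom. The procedure was tested on simulated data. The members and lists were chosen with earlier results of these data known. Genes named outside the members are list members called in the test (up to 4 per list and contrast), uncalled members of the oxidase, integrin and receptor lists, the 5 best-correlated genes of S100a9, Cybb and Itgb2, and a treatment check; a few others, named as uncalled or undetected markers, were chosen after their values were seen. The number of arrays limits the precision. Alternatives covered scaling, background, filters, slide, replicate block and left-out arrays; the one without slide 5 was chosen after seeing the data. Same-numbered arrays were not treated as pairs. Their deviations correlated above 0.1 in 2 of 6, 3 of 6 and 6 of 6 pairs for replicates 1, 2 and 3. Replicate 3 shares a slide and differently numbered arrays were not compared, so these values cannot decide whether the numbers pair the samples. Some genes of the related lists are not reported here.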

Additional observations from a re-analysis of the deposited data

How the results depend on the processing

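Of the calls in males and females, direction was kept under every alternative run. The number of genes called was 5 in males and 6 in females under median scaling, quantile normalization, the deposited value table, no filter, every probe as its own feature, limma-trend and only the 6 arrays compared. Normexp correction left 3 in males, and requiring signal above background on all 12 arrays left 2 in males and 2 in females, since only 3 of the 8 genes were then fitted. The slide as a fixed block left 2 in females, S100a9 and Cyba; the cause was not tested. Leaving out each array gave 4 to 6 in males, 5 to 6 in females and 0 to 0 in the other comparisons. With the replicate number as a block, 5 and 6 were called, and it changed no call, but whether the numbers pair the samples is not known. Among all genes this block called 6335 against 4895 in males and 7731 against 5919 in females. In female minus male after dexamethasone it called 849 against 561. Without slide 5, 4 and 4 were called.

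Signs turned only in differences that were not called. Median scaling gave -0.02 for Itgb2 after vehicle and 0.04 for Cyba after dexamethasone, both female minus male, and moved the median of all genes in females to 0.13, against -0.08. Normexp gave female minus male effects of -0.08 (Cybb) and -0.24 (Ncf1), and female minus male after dexamethasone of -0.04 (S100a9), -0.14 (Cybb), 0.00 (Cyba) and -0.07 (Ncf1). Without slide 5, the male difference of Ncf4 was 0.09; the effect differences were 0.16 (S100a8), 0.57 (S100a9) and -0.28 (Ncf1); after vehicle, female minus male was -0.59 (S100a8), -0.12 (S100a9), 0.08 (Cybb), -0.01 (Itgb2) and 0.22 (Itgam); and after dexamethasone 0.04 (Cyba) and -0.09 (Ncf1). Leaving out single arrays gave ranges across 0 of -1.38 to 0.12 for Ncf4 in males and -0.98 to 0.04 for Cybb in females. For the effect difference they were -1.12 to 0.16 (S100a8), -0.64 to 0.50 (S100a9), -0.07 to 1.20 (Cybb), -0.44 to 0.01 (Cyba) and -0.51 to 0.35 (Ncf1). After vehicle they were -0.26 to 1.02 (S100a8), -0.76 to 0.25 (Cybb), -0.01 to 0.39 (Cyba), -0.08 to 0.23 (Itgb2) and -0.49 to 0.11 (Itgam). After dexamethasone they were -0.32 to 0.32 (S100a8), -0.30 to 0.94 (Cybb), -0.20 to 0.16 (Cyba) and -0.23 to 0.62 (Ncf1).

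Over all genes, the slide as a fixed block called 3086 against 5919 in females and 252 against 415 in female minus male after vehicle. The slide as a random block called 7745 against 4895 in males, 654 against 415 after vehicle and 919 against 561 after dexamethasone, and only the 6 arrays compared gave 165 against 415 after vehicle. Without slide 5 the counts were 263 after vehicle and 870 after dexamethasone. For the effect difference, 7 genes were called, against 28 with normexp, 13 with limma-trend, 4 on all 12 arrays and 0 without a filter or without slide 5. Leaving out single arrays called 0 to 5 genes there, 261 to 403 after vehicle, 296 to 627 after dexamethasone and 3744 to 6069 in females.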

Other observations

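Oxidases outside the phagocyte and antioxidant enzymes were counted too. Of 5 measured genes of the other oxidase family, Nox4, an oxidase of several non-immune cells, fell by 1.22 ± 0.36 in males (adjusted p = 0.039, limma). Nox4 was not well above background on any female array, so no female value is given. Nox1 rose by 0.89 ± 0.25 in females (adjusted p = 0.0257), with 0.34 ± 0.25 in males (adjusted p = 0.408). Its signal was dim: in each sex 2 of 3 vehicle arrays and all 3 dexamethasone arrays were well above background. Of 12 genes for superoxide and peroxide removal, 0 were called in males and 2 in females, Sod3 (-0.64 ± 0.17) and Sod2 (-0.47 ± 0.13). For the female minus the male effect, 0 of these 12 were called. Among 5 erythroid markers, Ahsp, the alpha-haemoglobin chaperone, was called lower in females (-0.98 ± 0.27, adjusted p = 0.0265) and stood at -0.83 ± 0.27 in males (adjusted p = 0.0573). The female minus the male difference was not called for Nox1 (0.55 ± 0.35, adjusted p = 0.603).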
